A study of Rattus norvegicus with 8 samples.

Results

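The effect of dexamethasone in livers of rats that had also received GW3965 was read from 4 of the 8 arrays of the series, the 2 Dex+GW3965 arrays and the 2 GW3965 arrays, which were chosen by their sample labels. It was described over 16253 of 31042 probe sets that are not Affymetrix controls, which exceeded their array's median on at least 2 of the 8 arrays, and 12892 of these carried 1 gene symbol and named 9829 genes. The animals were male Sprague-Dawley rats of 180 to 200 g. GW3965 animals were gavaged with GW3965 at 50 mg/kg for 3 days and injected in muscle with physiologic saline on the last of these days, and Dex+GW3965 animals had the same gavage with an injection of dexamethasone at 1.5 mg/kg instead. Both groups therefore shared the LXR agonist and differed in the steroid. The other 4 arrays, vehicle (gavage vehicle and saline) and Dex (gavage vehicle and dexamethasone at 1.5 mg/kg), shared no array with this comparison and gave the same dexamethasone effect without GW3965. Livers were taken 24 h after the injection, and 5 µg of total RNA was labelled for an Affymetrix rat genome expression array. The 2 arrays of a group carry the same liver number in the labels, followed by a or b, although 2 animals per treatment are described in the methods. Whether a group stands for 2 livers or 1 therefore cannot be told, and p-values measure the spread between arrays, which may be technical.

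Glucocorticoids act through the glucocorticoid receptor (GR), a nuclear receptor that enters the nucleus on binding steroid, raises genes of gluconeogenesis and amino acid breakdown in hepatocytes, and lowers many inflammatory genes. GW3965 is a synthetic agonist of the liver X receptors (LXRs), nuclear receptors for oxysterols that pair with RXR and switch on genes of sterol export and fatty acid synthesis. The comparison asks what dexamethasone does to liver mRNA in animals that also received the LXR agonist. The interaction test asks where that effect differs from the effect in livers without the LXR agonist. How far the LXRs were activated in these livers was not tested.

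All values are log2 signals as deposited, and a change is a difference of group means in log2 units with its standard error (SE) from limma. The array medians lay between 5.48 and 5.51, and their mean, 5.49, served as a floor: a change from or to a group mean under it is given as "at least" its size above the floor. The median absolute difference between the arrays of a group was 0.0698 for GW3965 and 0.0777 for Dex+GW3965, against 0.152 between the means of these groups. Hepatocyte markers were present on all arrays. Alb, the major plasma protein of hepatocytes, stood at 14.93 and 14.92 with GW3965 and at 14.92 and 14.89 with Dex+GW3965, and of 9 kept hepatocyte markers 3 were higher, 3 lower and 3 did not pass. Because whole liver was measured, fewer cells of a type and less RNA per cell cannot be told apart.

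Dexamethasone changed 5825 of 16253 probe sets in livers with GW3965, or 35.8% (adjusted p under 0.05, limma), of which 3096 (19%) were higher and 2729 (16.8%) lower. The balance depended on the scaling, since after quantile normalization 2829 were higher and 3088 lower. Most of these changes were small. The median absolute change of a changed probe set was 0.365, 4511 of them moved by less than 1.5-fold, and 466 (2.87%) moved at least 2-fold, 266 up and 200 down. The 2 arrays of one group lay wholly above or below those of the other for 67.6% of all kept probe sets, so that lack of overlap alone says little about a gene here. Over the 9829 genes, each read on its brightest kept probe set, 2006 were higher and 1836 lower, and the median change was -0.01. The gene lists below are to be read against these counts. Lists and members were chosen with earlier results of these data known, so counts over a list are descriptions and not tests.

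Ces2c, a carboxylesterase of the endoplasmic reticulum, rose most among genes read on their brightest kept probe set. Its signal was 7.86 and 7.88 on the GW3965 arrays and 13.61 and 13.64 on the Dex+GW3965 arrays, a rise of 5.76 (SE 0.05) or 54.0-fold (adjusted p = 2.44e-21 from limma). The rise was smaller than the 6.69 without GW3965 (interaction -0.93, adjusted p = 3.97e-08 from limma). Eif4ebp3, a repressor of cap-dependent translation, went from 8.36 and 8.18 to 12.38 and 12.32, a rise of 4.08 (SE 0.06). The arrays of the groups lay far apart for both genes. Acmsd, which diverts tryptophan breakdown away from NAD synthesis, was at 6.44 and 6.20 with GW3965 and at 9.14 and 9.18 with Dex+GW3965, a rise of 2.84 (SE 0.08). Gpt, the alanine aminotransferase that feeds pyruvate into gluconeogenesis, went from 9.86 and 9.89 to 12.52 and 12.48, a rise of 2.63 (SE 0.04). Other leading rises were Rgs16, a regulator of G protein signaling, by 2.80, Cyp4a8, a fatty acid hydroxylase, by 2.74, A2m, the acute phase protease inhibitor of the rat, by 2.69, and Mt2A, a metallothionein that binds zinc, by 2.58. The remaining members of the 15 largest rises were interferon-stimulated genes and are given with that list.

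Aldh1a1, which oxidizes retinal to retinoic acid, fell most among genes read in this way, from 10.96 and 10.92 on the GW3965 arrays to 7.21 and 7.16 on the Dex+GW3965 arrays. It fell by 3.76 (SE 0.06), so that its signal was 13.5-fold lower (adjusted p = 2.01e-18 from limma). Serpina7, the thyroxine-binding globulin of plasma, was at 8.10 and 8.16 with GW3965 and below the floor with Dex+GW3965, at 4.35 and 4.46, so that it fell by at least 2.64. Inmt, a methyltransferase for indole amines, fell by 3.26 (SE 0.11), from 9.96 and 10.01 to 6.72 and 6.73. Slco1a4, an uptake transporter of organic anions, fell by 2.86 (SE 0.04), and Slc17a3, a further organic anion transporter, fell by 2.85 (SE 0.10). Hsd17b2, which inactivates estradiol and testosterone, fell by 2.81 (SE 0.06). Ephx1, the microsomal epoxide hydrolase, went from 12.89 and 12.91 to 10.11 and 10.14, and fell by 2.78 (SE 0.04). Ubd, a ubiquitin-like modifier, fell by 2.76 and Nat8, an acetyltransferase of cysteine conjugates, fell by 2.53. The sterol exporter Abcg5 fell by at least 2.39.

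**Figure D1:**
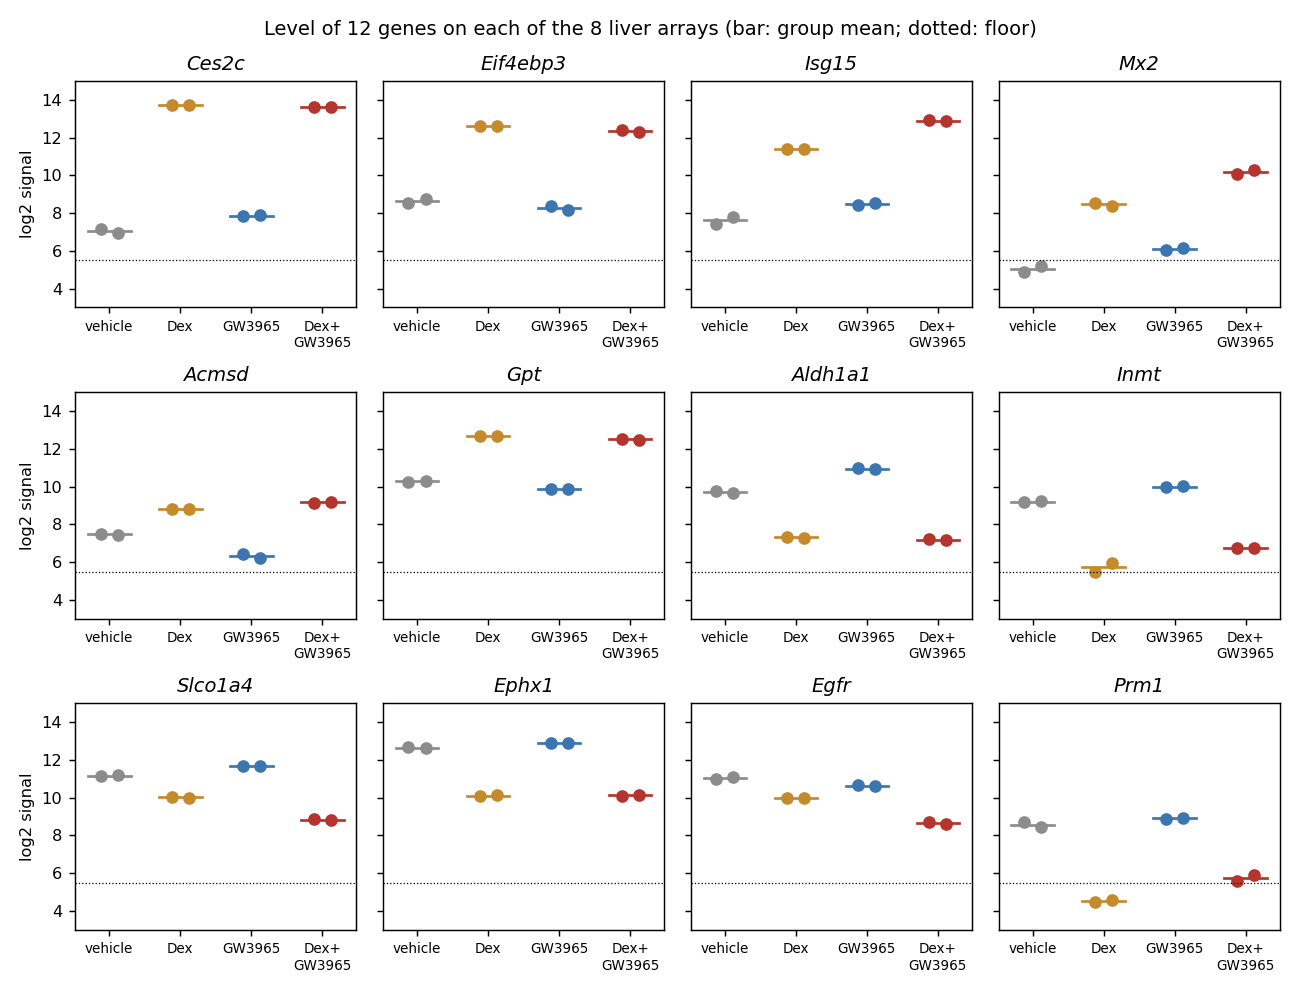
Each panel plots the log2 signal of 1 gene on the 8 arrays (points), with the group mean as a bar and the floor of 5.49 as a dotted line; groups are on the horizontal axis. For Ces2c, Eif4ebp3, Isg15, Mx2, Acmsd and Gpt the Dex+GW3965 arrays lie above the GW3965 arrays, and for Aldh1a1, Inmt, Slco1a4, Ephx1, Egfr and Prm1 they lie below them.

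Interferon-stimulated genes, which encode antiviral proteins and are switched on when factors such as Stat2 and Irf9 bind an interferon-stimulated response element (ISRE) in their promoters, rose together. Of 53 listed genes 44 were kept and 9 were not analysed here, and of the 44, 40 were higher (19% of all probe sets), 1 was lower and 3 did not pass, 31 rose at least 2-fold, and their median change was 1.43. For 3 of the 44 the GW3965 mean lay under the floor and the Dex+GW3965 mean did not. Among these 3 was Oas1b, which was kept through the Dex+GW3965 arrays alone. It is counted among the 40, the 31 and the genes with the motif below. The core of the ISRE, GAAA repeated after a spacer of any 2 bases, was searched on both strands of the RefSeq promoters of rat build GRCr8, 250 bases before to 50 bases after each start. It was found for 4.12% of the 27457 genes with a promoter and for 3.23% of the 8235 kept genes that have one. Among kept genes with a promoter, it was found for 22 of the 128 that rose at least 2-fold (17.2%), 3 of the 106 that fell at least 2-fold (2.83%) and 22 of the 35 of the interferon list (62.9%). Outside the interferon list it was found for 7 of the 104 genes that rose at least 2-fold (6.73%). The promoters of the 3 list members with the motif that rose most show where these letters lie; capitals mark the motif, and the first base of each match lies 44 bases before the start of Ifit3, 91 and 59 before that of Ifi44l, and 41 and 35 before that of Oas1a, where the matches overlap.
Ifit3, chr1:241527076-241527375, strand +: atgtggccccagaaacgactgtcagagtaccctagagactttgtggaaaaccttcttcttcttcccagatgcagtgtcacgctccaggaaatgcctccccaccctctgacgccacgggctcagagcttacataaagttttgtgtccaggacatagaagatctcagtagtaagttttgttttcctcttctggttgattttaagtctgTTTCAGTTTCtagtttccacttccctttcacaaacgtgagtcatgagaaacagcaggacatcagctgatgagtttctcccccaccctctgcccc
Ifi44l, chr2:243328473-243328772, strand +: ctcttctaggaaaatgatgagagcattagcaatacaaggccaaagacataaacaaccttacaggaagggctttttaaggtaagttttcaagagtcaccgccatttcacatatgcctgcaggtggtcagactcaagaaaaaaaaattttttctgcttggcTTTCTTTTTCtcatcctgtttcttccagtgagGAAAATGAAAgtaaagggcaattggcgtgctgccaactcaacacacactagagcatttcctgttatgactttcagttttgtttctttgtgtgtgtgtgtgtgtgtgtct
Oas1a, chr12:41330216-41330515, strand +: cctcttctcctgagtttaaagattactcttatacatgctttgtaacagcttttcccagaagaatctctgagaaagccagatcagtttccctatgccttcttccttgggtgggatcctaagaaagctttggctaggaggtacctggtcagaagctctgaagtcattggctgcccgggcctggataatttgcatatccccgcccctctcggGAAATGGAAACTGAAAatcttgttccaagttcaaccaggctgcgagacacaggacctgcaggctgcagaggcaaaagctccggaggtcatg

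Isg15, the ubiquitin-like protein that is attached to other proteins under interferon, was at 8.41 and 8.53 on the GW3965 arrays and at 12.92 and 12.86 on the Dex+GW3965 arrays. It rose by 4.42 (SE 0.08) or 21.4-fold (adjusted p = 2.36e-17 from limma), and by 0.65 more than without GW3965 (adjusted p = 0.000306 from limma for the interaction). Mx2, an antiviral GTPase, went from 6.03 and 6.17 to 10.08 and 10.27, a rise of 4.08 (SE 0.10); its other kept probe set rose by 1.31. Herc6, the ligase that joins Isg15 to its targets in rodents, rose by 3.08 (SE 0.10) from 5.99 and 5.72 to 8.83 and 9.05. The interaction was 0.67 for Mx2 and 1.40 for Herc6, although the vehicle means of both lay under the floor. Usp18, which removes Isg15 from proteins, rose by 2.77 from 8.34 and 8.50 to 11.17 and 11.20, and this rise was smaller than without GW3965 by 1.14 (adjusted p = 2.52e-08 from limma). The same held for Oas1a, which makes the oligoadenylates that activate RNase L: it rose by 2.47, from 7.93 and 7.94 to 10.37 and 10.43, against 3.99 without GW3965, where its level in the untreated livers was lower (5.99 and 5.85). Ifit3, which binds viral RNA complexes, rose by 2.64, Ifi44l by 2.63, Mx1 by 2.59, Ifi44 by 2.33 and Irf7, the master factor of the interferon response, by 2.32. Of the factors that bind the ISRE, Irf9 rose by 0.75 and Stat2 by 0.45. Irf1, a factor induced by interferon gamma, was the single member that fell, by 0.41 (SE 0.07), and Ifit1 (change -0.12, SE 0.11) did not pass.

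**Figure D2:**
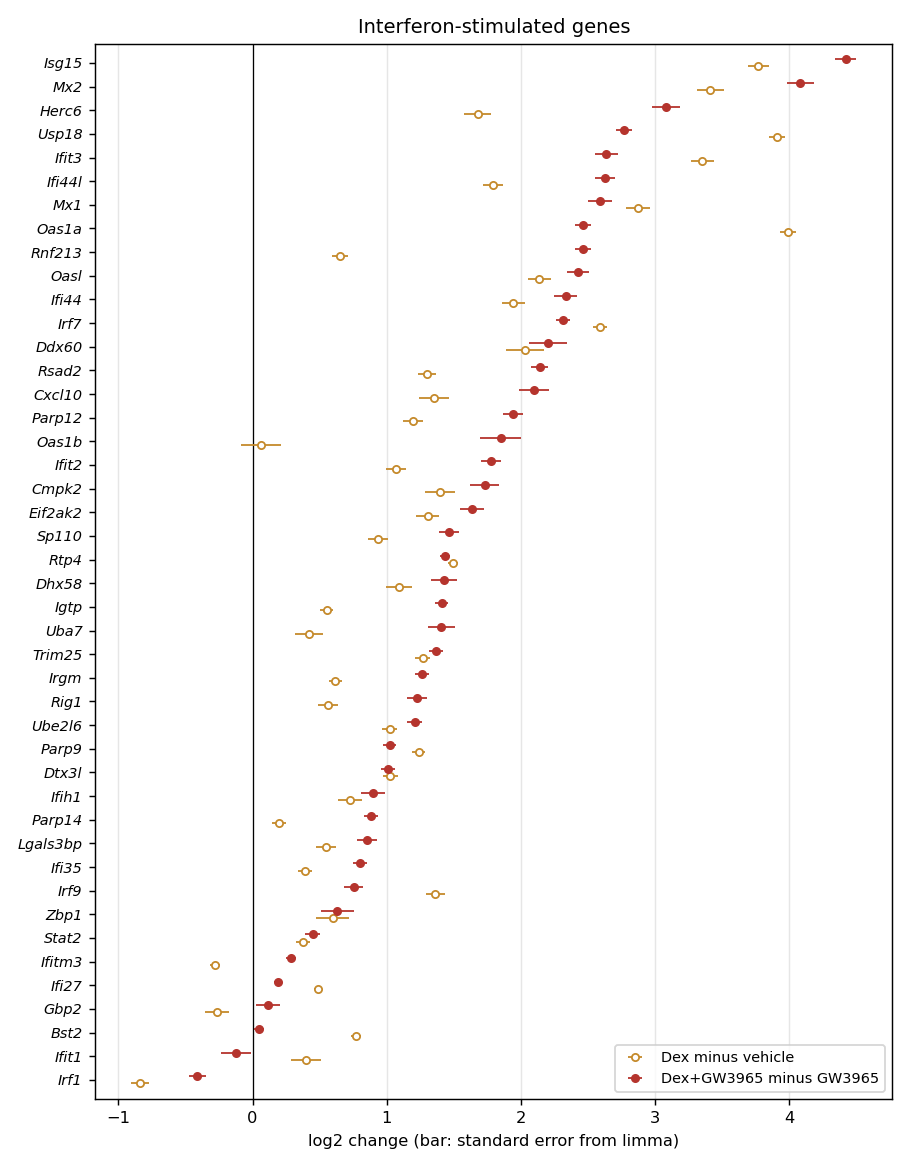
Log2 change of the 44 kept interferon-stimulated genes for Dex+GW3965 minus GW3965 (filled) and Dex minus vehicle (open), with SE from limma as bars. Isg15 and Mx2 lie farthest to the right at 4.42 and 4.08, and Irf1 lies left of 0 in both comparisons.

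Of 34 listed genes of GR feedback and classic GR targets, 31 were kept, 1 was below the filter and 2 were not analysed here. Of the 31, 18 were higher, 8 lower and 5 did not pass, and their median change was 0.37 against 1.04 in livers without GW3965. The interaction was below 0 for 22 of the 31 and above 0 for 5, against 6.93% and 15.8% of all probe sets. Of the 31, 24 were higher without GW3965, and the interaction subtracts that effect. All probe sets are therefore not a matched background, and these counts cannot show a trait particular to the list. Of 317 probe sets of any kind that rose at least 2-fold without GW3965, 180 likewise rose less or not at all with it. Fkbp5, a cochaperone that lowers the affinity of GR for steroid, was at 6.27 and 6.25 with GW3965 and at 8.38 and 8.36 with Dex+GW3965. It rose by 2.12 (SE 0.07), or 1.07 less than without GW3965 (adjusted p = 3.84e-07 from limma). Tsc22d3, the glucocorticoid-induced leucine zipper, rose by 0.95 from 8.82 and 8.87 to 9.76 and 9.84, and Lpin1, a phosphatidate phosphatase of triglyceride synthesis, by 1.42 from 8.53 and 8.55 to 9.93 and 9.99. The rise of Lpin1 was 1.63 smaller than without GW3965 (adjusted p = 1.04e-11 from limma). Igfbp1, which binds insulin-like growth factors in plasma, rose by 1.57 and Usp2, a deubiquitinase, by 2.00. Cdkn1a, an inhibitor of cyclin-dependent kinases, rose by 0.53 from 8.09 and 8.09 to 8.64 and 8.59, against 2.33 without GW3965.

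Several classic targets did not rise at all in the presence of GW3965. Tat, the tyrosine aminotransferase of the liver, was at 10.48 and 10.54 with GW3965 and at 10.18 and 10.12 with Dex+GW3965, a fall of 0.36 (SE 0.04), whereas dexamethasone without GW3965 took it from 11.02 and 11.03 to 12.06 and 12.08. The difference between these effects was -1.40 (adjusted p = 8.08e-12 from limma). Angptl4, an inhibitor of lipoprotein lipase, also went in opposite directions: it fell by 0.97 (SE 0.05) with GW3965, from 10.33 and 10.25 to 9.37 and 9.27, and rose by 1.32 without. Per1, a clock repressor (change 0.02, SE 0.10), and Cebpb, a basic leucine zipper factor (change -0.13, SE 0.06), did not pass with GW3965, and the interaction was -0.71 for Per1 and -1.36 for Cebpb. Pim3, a survival kinase, fell by 0.34 against a rise of 0.95 without GW3965. Nr3c1, which encodes GR itself, fell by 0.43 (SE 0.06), from 9.31 and 9.21 to 8.78 and 8.87, and by 0.75 without GW3965. Sgk1, a kinase of sodium transport, fell from 10.65 and 10.59 to 8.97 and 8.91, by 1.67 (SE 0.05). It was not among the genes whose effect differed from that without GW3965 by at least 1 with the interaction past the threshold.

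**Figure D3:**
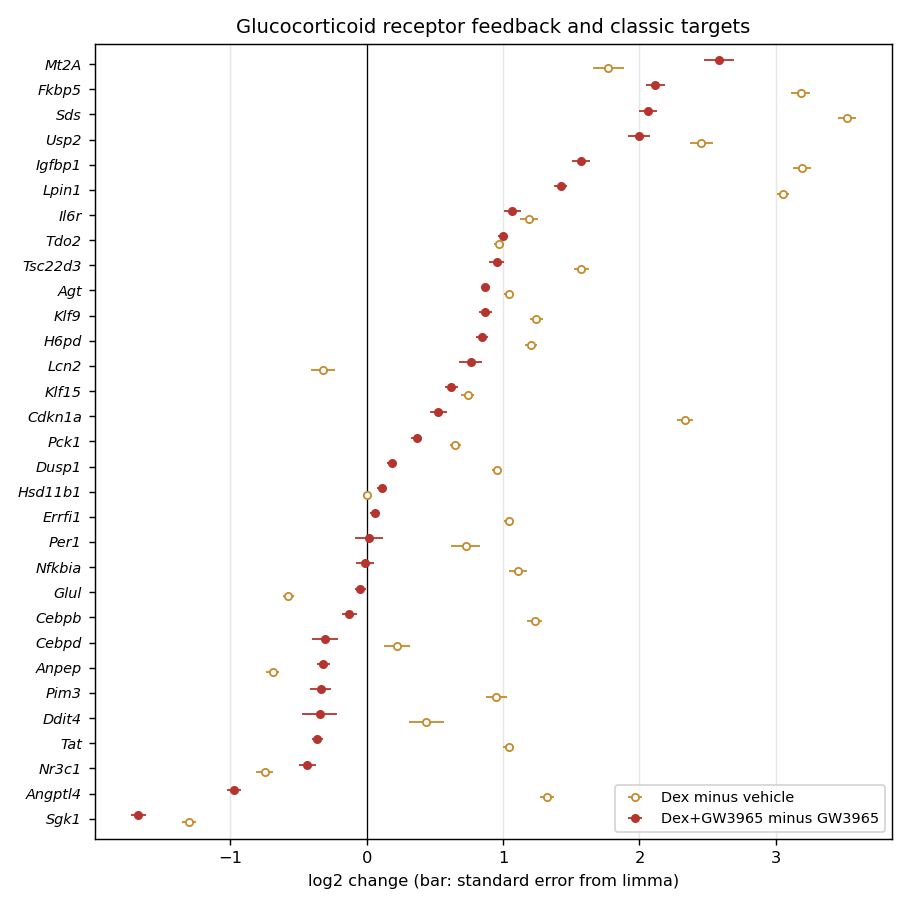
Log2 change of the 31 kept GR feedback and classic target genes for Dex+GW3965 minus GW3965 (filled) and Dex minus vehicle (open), with SE from limma as bars. The filled points lie left of the open ones for Fkbp5, Sds, Igfbp1, Lpin1 and Cdkn1a, and Tat, Pim3 and Angptl4 lie on opposite sides of 0. Lcn2 lies on opposite sides of 0 the other way, with its filled point to the right (interaction 1.08).

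Genes of glucose output rose. Of 19 kept genes of gluconeogenesis and glucose output, 13 were higher, none was lower and 6 did not pass, with a median change of 0.41; under quantile normalization 12 were higher and 2 lower. Pck1, the rate-limiting enzyme of gluconeogenesis, rose by 0.37 (SE 0.04) from 12.89 and 12.92 to 13.32 and 13.23, and Fbp1, which removes a phosphate from fructose bisphosphate, by 0.66 (SE 0.03). Slc37a4, which carries glucose 6-phosphate into the endoplasmic reticulum, rose by 1.28 (SE 0.04) from 10.78 and 10.87 to 12.11 and 12.11. H6pd, the glucose 6-phosphate dehydrogenase of the same compartment, rose by 0.84. Got1, the aspartate aminotransferase of the cytosol, rose by 1.16 against 2.21 without GW3965, and Ppargc1a, a coactivator of gluconeogenesis (change 0.14, SE 0.13), did not pass. The catalytic subunit of glucose 6-phosphatase could not be read alone, because its 4 probe sets are annotated jointly with G6pc1, Psme3 and Aoc3. The brightest of them was at 11.91 and 12.04 with GW3965 and at 11.91 and 11.87 with Dex+GW3965 (change -0.09, SE 0.04, adjusted p = 0.135 from limma), and the next at 11.02 and 11.07 and at 10.97 and 10.95. Without GW3965 these probe sets rose by 1.36 and 1.47, and the interaction was -1.45 and -1.56. The other 2 of the 4 did not pass without GW3965 (changes -0.19 and -0.04), nor did their interactions (-0.04 and -0.10), and with GW3965 one of them fell by 0.23 (adjusted p = 0.0342 from limma) and the other did not pass (-0.15).

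In glycolysis and sugar uptake 10 of 15 kept genes were higher, none was lower and 5 did not pass (median change 0.22). Slc2a5, the fructose transporter, went from 7.57 and 7.88 to 9.42 and 9.41, a rise of 1.69 (SE 0.08), and Pfkfb1, the bifunctional enzyme that sets the pace of glycolysis in liver, from 10.12 and 10.04 to 11.78 and 11.75, a rise of 1.68 (SE 0.04). Pklr, the pyruvate kinase of liver, rose by 0.57 with GW3965 and did not pass without it (-0.02), an interaction of 0.59 (adjusted p = 5.76e-07 from limma). In glycogen metabolism, 3 of 9 kept genes were higher and 1 lower. Gys2, the glycogen synthase of liver, rose by 0.71 and Pygl, the phosphorylase, by 0.54, whereas Ugp2, which makes UDP-glucose, fell by 0.66.

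For amino acid breakdown and urea synthesis, 25 of 34 kept genes were higher, 6 were lower and 3 did not pass (median change 0.41). Sds, which turns serine into pyruvate, was at 7.54 and 7.42 with GW3965 and at 9.54 and 9.55 with Dex+GW3965, a rise of 2.06 (SE 0.07) that was 1.46 smaller than without GW3965. Agxt, which converts glyoxylate to glycine, rose by 1.38, Gnmt, the methyltransferase that uses up S-adenosylmethionine, by 1.31 and Prodh, which opens proline breakdown, by 1.14. Of the urea cycle, Ass1 rose by 0.89, Arg1 by 0.71 and Cps1 by 0.37, and Otc fell by 0.14, a call that was lost without an intensity trend (adjusted p = 0.0852 from limma, and 0.00141 to 0.0315 in its other alternatives). Apart from Tat and Otc, the members that fell were Oat (change -0.94), which acts on ornithine, Kmo (-0.93), of tryptophan breakdown, Ddc (-0.76), an amino acid decarboxylase, and Aldh4a1 (-0.35), of proline breakdown.

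Subunits of the mitochondrial respiratory chain and ATP synthase rose. Of 26 kept genes, 25 were higher and Cox5a did not pass, and the median change was 0.44 with GW3965 and 0.45 without. Ndufv2, of complex I, rose by 0.67 from 10.94 and 10.90 to 11.58 and 11.60, Sdhb, of complex II, by 0.60 from 11.80 and 11.78 to 12.39 and 12.39, and Cox5b, of complex IV, by 0.59. None of the 26 moved as much as 2-fold.

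Genes of insulin signaling and IGF binding were higher in 8 of 16 cases, lower in none and not past the test in 8 (median change 0.26). Besides Eif4ebp3 and Igfbp1, these were led by Foxo1 (0.87), the factor that insulin keeps out of the nucleus, and Trib3 (0.69), a pseudokinase that restrains Akt. Irs2, the docking protein of the insulin receptor, rose by 0.54 with GW3965, from 6.13 and 6.05 to 6.66 and 6.60, and fell by 0.53 without it. The growth hormone and STAT5 list leaned the other way, with 10 of 18 kept genes lower, 5 higher and 3 not past the test (median change -0.27). Egfr, the receptor of epidermal growth factor, went from 10.66 and 10.61 to 8.70 and 8.61, and fell by 1.98 (SE 0.05) on its brightest probe set. Of its other kept probe sets, 1 was lower and 1 (change -0.03) did not pass. Socs2, a feedback inhibitor of growth hormone signaling, fell by 1.19 (SE 0.09), Ghr, the growth hormone receptor, by 0.99 (SE 0.04) and Igf1 by 0.53 (SE 0.04). Onecut1, a hepatocyte factor under growth hormone control, fell by 1.36. Cish, another STAT5 feedback gene, behaved otherwise: it stood at 8.42 and 8.50 with GW3965 and at 8.64 and 8.67 with Dex+GW3965, whereas without GW3965 dexamethasone took it from 8.01 and 8.02 to 6.03 and 5.98. Its rise of 0.19 (adjusted p = 0.0331 from limma) did not pass when any 1 of the 4 arrays was left out (adjusted p 0.0561 to 0.227 from limma), and the interaction was 2.20 (adjusted p = 2.21e-11 from limma).

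The LXR targets did not move as a group, with 6 of 20 kept genes higher, 6 lower and 8 not past the test (median change -0.04). Abca1, the transporter that loads cholesterol on to HDL, stood at 9.25 and 9.25 with GW3965 and at 9.18 and 9.18 with Dex+GW3965. Without GW3965, dexamethasone took it from 7.57 and 7.87 to 9.75 and 9.87, so that the interaction was -2.16 (adjusted p = 8.16e-11 from limma) and the vehicle arrays alone stood low. Srebf1, the factor that drives fatty acid synthesis (change 0.09, SE 0.04), Abcg1, a further cholesterol exporter (0.07, SE 0.10), and Nr1h3, which encodes LXRα (-0.02, SE 0.05), did not pass. Abcg5 went from 7.73 and 8.03 to 5.24 and 4.81, and its partner Abcg8, at 5.33 and 5.68 with GW3965, barely exceeded the floor and fell below it. Unlike Abca1, both stood higher on the vehicle arrays than on the GW3965 arrays, Abcg5 at 8.81 and 9.04 and Abcg8 at 6.77 and 6.87.

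Fatty acid and triglyceride synthesis rose, with 16 of 25 kept genes higher, 5 lower and 4 not past the test (median change 0.36 with GW3965 and 0.18 without). Acaca, which makes malonyl-CoA, went from 9.20 and 9.19 to 11.01 and 11.08, a rise of 1.85 (SE 0.04). Fasn, the fatty acid synthase, went from 10.75 and 10.68 to 12.33 and 12.29, a rise of 1.60 (SE 0.04). Scd, the stearoyl-CoA desaturase, rose by 0.25 with GW3965 and fell by 0.79 without it, an interaction of 1.04. The members that fell act largely on polyunsaturated fatty acids: Fads2, a desaturase, fell by 2.33 (SE 0.05) from 10.85 and 10.83 to 8.55 and 8.46, Fads1, a further desaturase, by 0.99 and Elovl5, an elongase, by 0.63. Pnpla3, a lipase of lipid droplets, fell by at least 1.03, and Fitm2, a protein of droplet formation, fell by 0.18, while its other kept probe set rose by 0.75.

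Fatty acid oxidation and ketone synthesis fell, with 16 of 24 kept genes lower, 5 higher and 3 not past the test (median change -0.37 with GW3965 and -0.10 without). Ehhadh, the bifunctional enzyme of peroxisomal oxidation, went from 11.17 and 11.09 to 9.31 and 9.38, a fall of 1.78 (SE 0.05). Eci1, an enoyl-CoA isomerase of mitochondria, fell by 1.54 (SE 0.05) from 11.55 and 11.56 on the GW3965 arrays, against 0.40 without GW3965, where the untreated level was 10.23 and 10.42. Cyp4a3, a fatty acid hydroxylase, fell by 1.20, and Pdk4, the kinase that inactivates pyruvate dehydrogenase, by 0.58. Cpt1a, the gate of fatty acids into mitochondria, went against the list and rose by 1.27 (SE 0.05), as did Fgf21, a hormone of fasting, by 1.02. Ppara, the receptor that drives this pathway (change -0.09, SE 0.13), did not pass.

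In cholesterol synthesis and uptake, 13 of 21 kept genes were lower, 4 higher and 4 not past the test (median change -0.19 with GW3965 and -0.59 without). Msmo1, a sterol oxidase, fell by 0.63 and Mvd, which makes isopentenyl diphosphate, by 0.57, whereas Srebf2, the master factor of the pathway, rose by 0.37 and Hsd17b7 by 0.65. Bile acid genes were higher in 11 of 20 cases, lower in 7 and not past the test in 2, with a median change of 0.16 against -0.42 without GW3965. Cyp7a1, whose product opens the classic route from cholesterol to bile acids, was at 6.99 and 7.00 on the GW3965 arrays and at 8.44 and 8.32 on the Dex+GW3965 arrays, both far below the 10.58 and 10.65 of the vehicle arrays. It rose by 1.38 (SE 0.05) with GW3965 and fell by 0.53 without it (interaction 1.92, adjusted p = 1.04e-11 from limma). Cyp8b1, which steers synthesis towards cholic acid, rose by 0.74 with GW3965 and fell by 0.16 without. The falls of the list were led by Slco1a4 and Hsd17b2 and included Akr1d1, a steroid reductase of bile acid synthesis, by 1.30, and Slc10a2, a bile acid uptake transporter, by 0.35 against 1.68 without GW3965. Of 17 kept lipoprotein genes, 7 were higher, 4 lower and 6 did not pass. Lpl, the lipase of capillary walls, rose by 1.02 from 6.19 and 6.25 to 7.41 and 7.06, and Apob (change 0.07, SE 0.03) did not pass. Angptl4 and Angptl8, which inhibit that lipase, fell by 0.97 and 0.73.

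Drug metabolism was split, with 11 of 25 kept genes higher, 11 lower and 3 not past the test. Cyp1a1, a target of the aryl hydrocarbon receptor, was under the floor on average with GW3965 (5.38 and 5.51) and at 7.81 and 7.85 with Dex+GW3965, so that it rose by at least 2.34, and the rise was 1.62 smaller than without GW3965. The xenobiotic receptors Nr1i2 (PXR) and Nr1i3 (CAR) rose by 1.02 and 0.90. Sult1c2, a sulfotransferase, fell by 1.94 and Cyp3a2, a main cytochrome of male rats, by 0.28. Among 5 kept carboxylesterases, Ces2c and Aadac (0.15) were higher, and the 3 members of the Ces1 group were lower. Ces1c fell most of these 3, by 0.76. The rise of Aadac did not pass after quantile normalization, nor without GW3965 array a, GW3965 array b or Dex+GW3965 array b.

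Inflammatory genes leaned down. Of 27 kept cytokine, chemokine and inflammation genes, 11 were lower, 5 higher and 11 did not pass (median change -0.11). Il33, an alarmin of the interleukin 1 family, went from 9.34 and 9.17 to 7.27 and 7.29, and fell by 1.97 (SE 0.07). Cxcl12, a chemokine of stromal cells, went from 11.92 and 11.91 to 10.08 and 10.01, a fall of 1.87 (SE 0.04). Cd14, the coreceptor for endotoxin, fell by 1.26, Il1a by 1.20, Il1b by 0.97 and Ccl9 by 0.54. The members that rose included Il1r1 (0.84), a receptor for interleukin 1, and Cxcl1 (0.71), a chemokine for neutrophils. Kitlg, the stem cell factor, was under the filter on all of its 4 probe sets. In antigen presentation 5 of 18 kept genes were higher and 7 lower. The MHC class II genes RT1-Da and RT1-Bb fell by 1.31 and 1.30, RT1-Da from 9.74 and 9.82 to 8.56 and 8.39, whereas Tap1, the peptide transporter of class I, rose by 0.92 and RT1-N2, a nonclassical class I gene, by 0.89. RT1-DMa, which edits class II peptides, rose by 1.28.

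Of 22 kept acute phase genes, 8 were higher, 4 lower and 10 did not pass (median change 0.03). A2m went from 8.89 and 8.83 to 11.58 and 11.52, Orm1, the acid glycoprotein, rose by 1.12, and Il6r, the interleukin 6 receptor, by 1.07. Crp (change -0.07, SE 0.03) did not pass. Lcn2, an iron-trapping lipocalin, rose by 0.76 and fell by 0.32 without GW3965. In the list of metallothioneins and iron, 4 of 13 kept genes were higher and 4 lower. Mt2A was at 8.64 and 8.42 with GW3965 and at 11.34 and 10.89 with Dex+GW3965, and Hamp, the iron hormone hepcidin, fell by 0.21 against 1.45 without GW3965. The fall of Hamp with GW3965 was lost without GW3965 array a (adjusted p = 0.0715 from limma), without Dex+GW3965 array b (0.167) and without an intensity trend (0.0941), and its other alternatives gave 0.00101 to 0.0349.

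In the cell cycle list, 14 of 27 kept genes were lower, 3 higher and 10 not past the test (median change -0.25). After quantile normalization 18 were lower and 3 higher. Several mitotic genes lay close to the floor. Ccnb2, a cyclin of mitosis, fell by at least 0.27 and Cdk1, its kinase, by at least 0.39, and Cdkn3 was under the floor in both groups. Ccnd1, the cyclin of entry into the cycle, was at 8.51 and 8.54 with GW3965 and at 7.78 and 7.90 with Dex+GW3965. It fell by 0.69 (SE 0.08), against 2.44 without GW3965 (interaction 1.75, adjusted p = 3.5e-09 from limma). Myc did not pass with GW3965 (-0.22, SE 0.09) and fell by 1.99 without it. Gadd45a, a DNA damage response gene, rose by 0.56 with GW3965 and fell by 1.05 without.

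Immediate early and MAPK feedback genes fell in 11 of 19 cases, rose in 3 and did not pass in 5 (median change -0.37 with GW3965 and -0.06 without). Egr1, a zinc finger factor of early growth responses, was at 9.69 and 9.61 with GW3965 and at 7.37 and 7.38 with Dex+GW3965, a fall of 2.28 (SE 0.06). Without GW3965 it did not move (8.05 and 8.14 against 8.08 and 7.98), and the GW3965 arrays alone stood high. Fosb, a subunit of AP-1, showed the same order, at 5.93 and 5.96 with GW3965 and under the floor in all other groups. It was kept through the GW3965 arrays alone, so the filter fixed its fall, and it is counted among the 11 and in the median. Jun fell by 1.11 and Dusp6, a phosphatase of ERK, by 0.93, against 2.47 for Dusp6 without GW3965. Fos, the partner of Jun in AP-1, differed between its kept probe sets. The brightest over the 8 arrays, at 5.81 and 5.76 with GW3965, did not pass (change 0.04, SE 0.11). The other was at 8.36 and 8.28 with GW3965, at 4.01 and 4.08 with Dex+GW3965 and between 3.75 and 4.13 with vehicle or Dex, so that it fell by at least 2.83 from a level reached on the GW3965 arrays alone. Clock genes were lower in 6 of 13 cases and higher in 2. Bhlhe40, a repressor of the clock, fell by 0.91 and Cry1 by 0.75, and Bmal1 (0.04, SE 0.07) and Clock (-0.14, SE 0.07) did not pass. In the list of unfolded protein and heat shock responses 8 of 22 genes were lower and 5 higher. After quantile normalization 12 were lower and 5 higher. Herpud1, of protein quality control, rose by 0.82 and Hsph1, a heat shock cochaperone, fell by 0.77. Hspa5, the main chaperone of the endoplasmic reticulum, fell by 0.20. Of 19 kept hepatocyte transcription factors 8 were higher and 3 lower, and all but Onecut1 moved by less than 2-fold.

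Markers of other liver cells moved as well, and their part in the results was not tested. Of 11 kept markers of Kupffer cells and macrophages 9 were lower and 1 higher (median change -0.42), and their summed log2 signal was 12.90 on both GW3965 arrays and 12.61 and 12.65 on the Dex+GW3965 arrays. Cd5l fell by 1.20, Aif1 by 1.08 on its brightest probe set, Cd68 by 0.44 and Clec4f, which marks Kupffer cells, by 0.25, whereas Lyz2 rose by 0.90. Of 9 kept markers of sinusoidal endothelial cells 6 were lower and 2 higher (median change -0.46, summed signal 12.26 to 12.27 against 11.88 on both arrays). Of 13 kept stellate cell markers 6 were lower and 3 higher (median change -0.29, summed signal 12.38 to 12.41 against 11.97 to 11.98). All 4 kept erythrocyte markers were lower (median change -0.99, summed signal 14.12 to 14.20 against 13.10 to 13.13). Hbb, a globin chain, was at 14.05 and 14.13 with GW3965 and at 13.08 and 13.05 with Dex+GW3965, while vehicle and Dex arrays lay between, at 13.43 to 13.55. Of the lymphocyte lists, 2 of 5 T and NK cell markers and 1 of 3 B cell markers were lower, and 1 T and NK cell marker was higher, Gzmb, whose signal went up by no less than 0.11 (limma, adjusted p = 0.0484). That rise was lost with any 1 of the 4 arrays left out (adjusted p 0.108 to 0.193), without an intensity trend (0.0521) and with the letter as a block (0.053). Of 3 kept cholangiocyte markers 1 was higher, Epcam, which rose by 0.96. The 2 kept neutrophil markers, S100a8 and S100a9, were under the floor on average with GW3965, and S100a9 rose by at least 0.41.

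Genes of spermatids, the germ cells that turn into sperm, were also lower. Prm1, a protamine of sperm chromatin, was at 8.88 and 8.92 on the GW3965 arrays and at 5.56 and 5.92 on the Dex+GW3965 arrays, and fell by 3.16 (SE 0.11); it was at 8.69 and 8.43 against 4.48 and 4.59 without GW3965. Odf1 fell by at least 1.49, Oaz3 by at least 2.27, Tnp1 by at least 1.65 and Crisp2 by at least 0.84; the Dex+GW3965 means of these 4 lay under the floor, and Crisp2 was kept through the GW3965 arrays alone. After these values were seen, 21 spermatid genes were collected, of which 11 were kept, 9 were below the filter and 1 was not analysed here. That list holds the 5 genes that led to it, so that a count over it would support nothing. Prm2 (change -0.09, SE 0.10) and Prm3 (-0.19, SE 0.11) did not pass. The source of this signal was not tested.

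The effect of dexamethasone with GW3965 was then set beside the effect without it, which changed 6806 probe sets (41.9%), 17.2% higher and 24.7% lower. Both comparisons called 3891 probe sets, which are 66.8% of those called with GW3965 and 57.2% of those called without. Of these, 1690 were higher in both, 1827 lower in both, and 374 went in opposite directions. Over the 16253 probe sets the log2 changes correlated with r = 0.684; genes are not independent replicates, and this is given as a description. The interaction passed for 3698 probe sets (22.8%), with 2571 (15.8%) above 0 and 1127 (6.93%) below 0, and after quantile normalization with 1843 above and 1587 below, so the excess of positive interactions depended on the scaling.

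Large effects were mostly smaller in the presence of GW3965. Of 695 probe sets that dexamethasone moved at least 2-fold without GW3965, the interaction ran against the effect in 448, with it in 54, and did not pass in 193. Since these 695 were picked for their size without GW3965, some shrinkage is built into that count. It covered both directions: 180 of 317 rises and 268 of 378 falls were smaller. Of the probe sets that moved at least 2-fold with GW3965, 237 of 266 rises and 179 of 200 falls were called in the same direction without it.

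**Figure D4:**
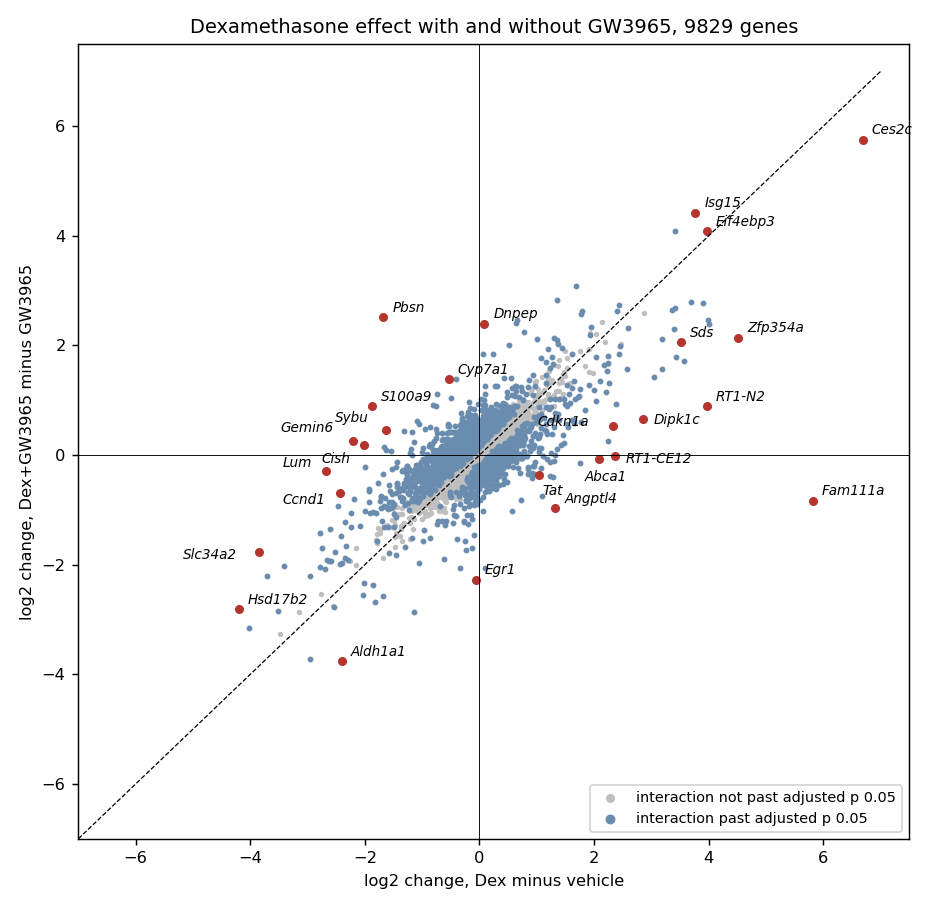
Log2 change for Dex minus vehicle (horizontal) and Dex+GW3965 minus GW3965 (vertical) of 9829 genes; blue points passed the interaction test, grey points did not, named genes are red, and the dashed line marks equal effects. Eif4ebp3 lies near the line, Ces2c below it (interaction -0.93) and Isg15 above it (0.65). Fam111a, RT1-N2 and Zfp354a lie far below it, and Pbsn and Dnpep far above it.

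The largest positive interaction belonged to Pbsn, probasin, a lipocalin known from prostate. It was at 5.22 and 5.27 with GW3965 and at 7.80 and 7.72 with Dex+GW3965, so that it rose by at least 2.27, and fell from 8.38 and 8.39 to 6.72 and 6.70 without GW3965 (interaction 4.19, adjusted p = 1.17e-13 from limma). Dnpep, an aspartyl aminopeptidase, was at 7.74 and 7.71 with GW3965 alone and between 9.82 and 10.17 on the other 6 arrays, so that the GW3965 arrays stood apart. Gemin6, of the complex that loads spliceosomal proteins, and Slc34a2, a phosphate transporter, were lowered by dexamethasone without GW3965, Gemin6 by 2.21 and Slc34a2 by at least 3.43. With GW3965, Gemin6 was 0.25 higher (7.47 and 7.54 to 7.74 and 7.77), a call that was lost when any 1 array was left out (adjusted p 0.0978 to 0.226 from limma), and Slc34a2 fell by 1.77. The stromal proteoglycan Lum, at 5.53 and 5.53 with GW3965 and 5.18 and 5.31 with Dex+GW3965, did not pass.

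The most negative interaction was that of Fam111a, a protease that restricts viral replication. Dexamethasone without GW3965 took it from 4.38 and 4.18 to 10.01 and 10.18, whereas with GW3965 it was at 4.29 and 4.44 and at 3.54 and 3.54, under the floor on all 4 arrays (interaction -6.64, adjusted p = 1.06e-13 from limma). Dipk1c was likewise under the floor with GW3965 (3.97 and 4.16 to 4.83 and 4.61) and rose to 6.95 and 6.88 with dexamethasone alone. Zfp354a, a zinc finger protein, rose in both settings, by 2.14 with GW3965 (6.52 and 6.40 to 8.65 and 8.55) and by 4.51 without. The MHC class I genes RT1-N2 and RT1-CE12 were already higher with GW3965 alone, at 8.38 and 8.37 and at 11.75 and 11.80, than with vehicle, at 4.79 and 4.42 and at 9.69 and 9.27.

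Of the 9829 genes, 16 changed at least 2-fold with GW3965 and did not pass without it, 7 higher and 9 lower. For 11 of the 16 the GW3965 mean lay farther from the vehicle and Dex means than the Dex+GW3965 mean did. The Dex+GW3965 mean lay farther for the other 5. Of these 5, Mbnl3, Oas1b and Spin2b were kept through the Dex+GW3965 arrays alone, and Fosb, one of the 11, through the GW3965 arrays alone. The filter fixed the direction of these genes, which are counted among the 7 higher and 9 lower, so the counts are a description. The means of all 4 groups lay above the floor for 9 of the 16, among them Egr1, Dnpep, Hbb, Alas2 and Lpl. Among genes with all 4 means above the floor, 12 moved by at least 0.5 in opposite directions in the presence and absence of GW3965, 8 of them upward with GW3965. Besides Cyp7a1, Angptl4, Gadd45a and Irs2, these included Acss2, the acetyl-CoA synthetase of the cytosol, which rose by 0.57 with GW3965 and fell by 0.54 without, and Lyz2, which rose by 0.90 and fell by 0.75.

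**Figure D5:**
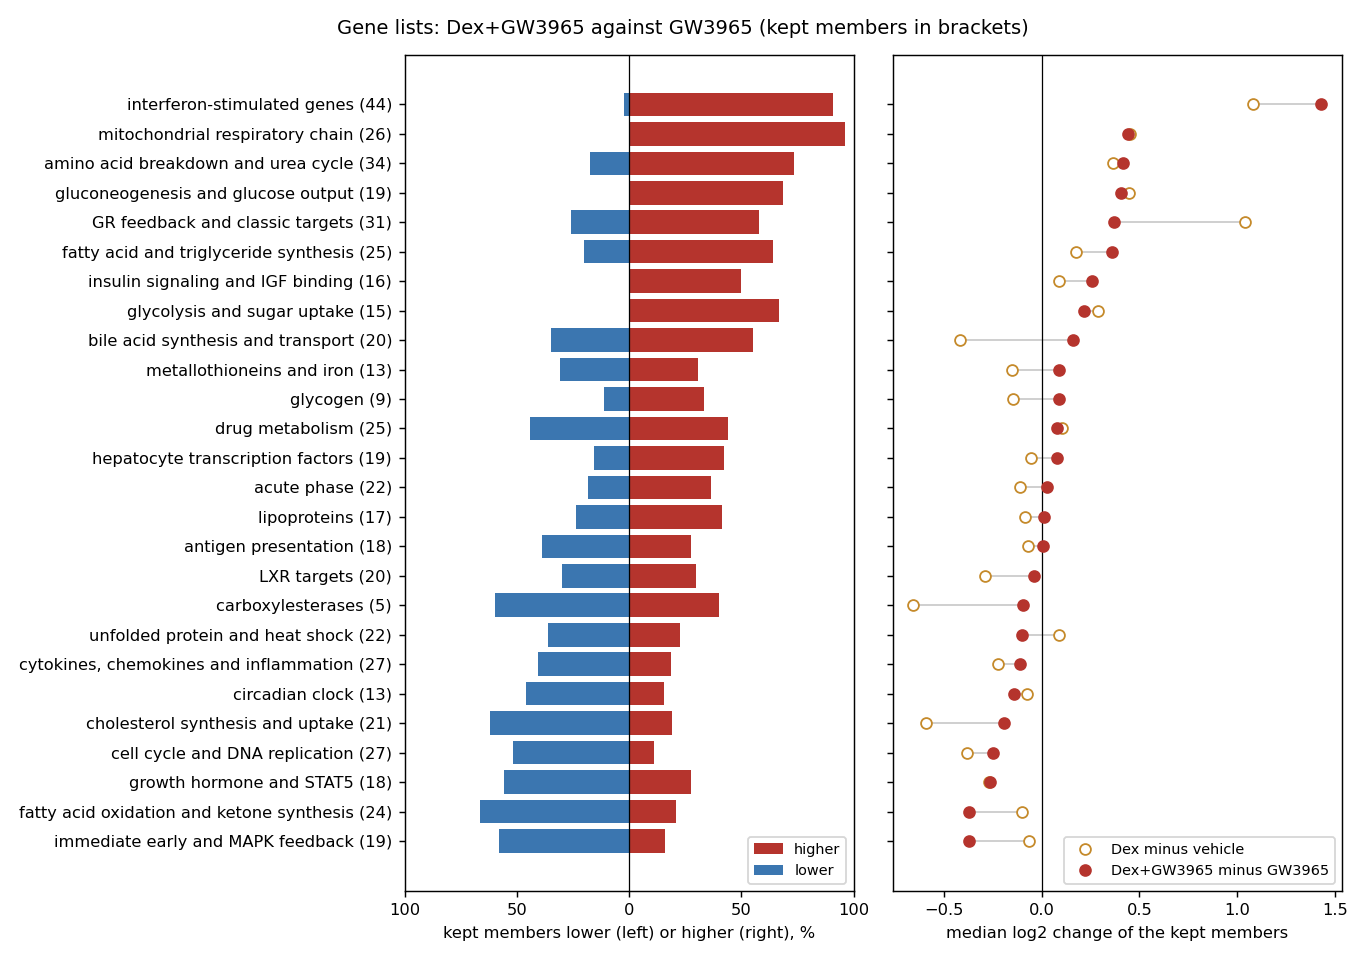
Left, the percentage of kept members of each gene list that were higher (red) or lower (blue) in Dex+GW3965 than in GW3965, with the number kept in brackets. Right, the median log2 change of the list for Dex+GW3965 minus GW3965 (filled) and Dex minus vehicle (open): the interferon list stands at 1.43 and 1.08, the GR list at 0.37 and 1.04, and the bile acid list at 0.16 and -0.42.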

How the data were processed

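Total RNA of rat liver was hybridized to Affymetrix rat genome arrays, 8 in all and 2 for each group, and groups and letters a and b were taken from the sample labels. The deposited table holds 1 log2 signal per probe set and array. According to the methods and the submitters' processing notes, the authors re-mapped probes to UniGene, used perfect-match signals and subtracted background with MAS5; the version and the step that brought the arrays to a common scale are not given in the sources used here. The log2 scale was read from the values, which ran from 2.50 to 14.95. The number of arrays limits the precision.

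The 57 Affymetrix control probe sets were left out, and probe sets above the median of their array on at least 2 of 8 arrays were kept. Group means of all 8 arrays were fitted with limma 3.58.1 in R 4.3.3 (lmFit, eBayes with an intensity trend, residual degrees of freedom 4, prior 12.7) and adjusted by Benjamini-Hochberg over 16253 probe sets, with a threshold of 0.05. The contrasts were Dex+GW3965 minus GW3965, Dex minus vehicle, and their difference (the interaction). The steps were tested on simulated data. Genes were named from the platform annotation (20826 probe sets with 1 symbol, 436 with several, 9780 with none), and each gene was read on its brightest kept probe set with 1 symbol. Sequences came from RefSeq (GRCr8).

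Named genes were the 15 largest rises and falls, the 8 largest interactions in each direction, up to 4 leading members, opposing members and defining genes of each list, and genes that the study's text describes; others were chosen after their values were seen, among them Acss2 and the second probe set of Fos. Members and lists were chosen with earlier results of these data known. Alternatives were quantile normalization, other filters, no trend, letters as a block, 4 arrays only, 1 array left out, and the methods' t-test.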

Additional observations from a re-analysis of the deposited data

Results flagged for a closer look

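For 51 genes named by the rule the dexamethasone effect with GW3965 differed from that without it by at least 1 on the log2 scale, with the interaction past the threshold in limma. Values below are that difference, with GW3965 minus without. In the list of GR feedback and classic targets it was lower than 0 for Angptl4 (-2.29), Cdkn1a (-1.81), Lpin1 (-1.63), Igfbp1 (-1.62), Sds (-1.46), Tat (-1.40), Cebpb (-1.36), Pim3 (-1.29) and Fkbp5 (-1.07), and above 0 for Lcn2 (1.08). It was also lower than 0 for Got1 (-1.05) of glucose output. Among genes of immunity and antiviral defence the difference was negative for Fam111a (-6.64), RT1-N2 (-3.07), RT1-CE12 (-2.37), Oas1a (-1.53) and Usp18 (-1.14), and positive for Herc6 (1.40), Lyz2 (1.65) and S100a9 (2.77). Transport and lipid genes with a negative difference were Abca1 (-2.16), Slco1a4 (-1.72) and Eci1 (-1.14), and those with a positive one were Cyp7a1 (1.92), Hsd17b2 (1.38), Slc10a2 (1.33), Abcg8 (1.06), Scd (1.04) and Slc34a2 (2.08). In growth and signaling the difference was negative for Egr1 (-2.21) and Fosb (-2.15) and positive for Cish (2.20), Myc (1.77), Ccnd1 (1.75), Gadd45a (1.61), Dusp6 (1.55) and Irs2 (1.06). The erythroid genes Alas2 (-1.57) and Hbb (-1.08), the kinase-like gene Dipk1c (-2.19), the zinc finger gene Zfp354a (-2.37), and Cyp1a1 (-1.62), Aldh1a1 (-1.35) and Herpud1 (-1.01) were also lower than 0. The remaining positive differences belonged to Pbsn (4.19), Gemin6 (2.46), Lum (2.39), Dnpep (2.31), Sybu (2.10), Acmsd (1.48), Hamp (1.24) and Epcam (1.15). A group mean under the floor enters the difference for Fam111a, RT1-N2, Dipk1c, Fosb, Abcg8, Slc34a2, S100a9, Sybu, Lum, Pbsn, Cyp1a1 and Herc6, so that its size is uncertain there. Among features named after their values were seen, the difference was also at least 1 in size for Acss2 (1.11), S100a8 (1.82) and the second probe set of Fos (-4.28), of which the latter 2 had group means under the floor.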

How the results depend on the processing

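The count of probe sets changed between Dex+GW3965 and GW3965, 5825, was 5917 after quantile normalization, 5990 without a filter, 5640 with a filter on the mean, 5152 without an intensity trend, 6085 with only the 4 arrays compared, and 4262 to 4963 with 1 array left out. The count of interactions, 3698, lay between 2684 and 3611 under these settings other than the fit of 4 arrays, which holds no interaction, and between 2587 and 3683 with 1 array left out. The methods' t-test, a one-sample test of log ratios, called 638 probe sets at its threshold, 372 higher and 266 lower, and 25 after Benjamini-Hochberg, and 466 probe sets of the limma fit also moved at least 2-fold. With the letter as a replicate block 5654 probe sets changed and 3543 interactions passed. The letters did not pair the arrays: the a minus b differences of GW3965 and Dex+GW3965 correlated with r = -0.035 over probe sets, and those of all pairs of groups with -0.232 to 0.0831. Of 264 named genes 242 passed the test, and 212 of these did so under every alternative that was run for single genes. The other 30 missed the threshold in at least 1 of them, with no change of sign, and include Cish, Gemin6, Aadac, Hamp and Otc. The interactions of the 51 genes named by the rule and listed above passed under each of the 7 alternatives run for them. These alternatives left out GW3965 or Dex+GW3965 arrays but no vehicle or Dex array, although the interaction rests on those as well. Under quantile normalization the median of the antigen presentation list went from 0.005 to -0.014, and no other list median changed sign. Signals near the floor carry bounds only, and 2 arrays in a group limit what small changes show.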
